A study of Mus musculus with 2 samples.

Results

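Small RNAs of the mouse testis were compared at 833 abundant 5′ ends that the Tdrkh-/- and the Tdrkh+/- library shared. A 5′ end here is a group of sequences of 24 to 40 nt that share their first 24 nt and differ in where they stop. The 833 ends were chosen by their reads, at least 1000 in each library, among 13420979 such ends found in either library and 1366680 found in both. Before the last step 874 ends had the reads, and 41 of these were left out because their first 24 nt matched a microRNA or a structural RNA (GENCODE M21). That annotation holds no nuclear tRNA genes and no full ribosomal RNA precursor, so fragments of these could have passed. The reads that chose the ends are given below as a description only. Each library was made from 5 pooled pairs of whole testes taken 11 days after birth. In Tdrkh-/- mice both copies of Tdrkh lacked exons 2 to 4, which hold the start codon, and Tdrkh+/- mice lacked them on one copy. Both came from intercrosses of mice in which EIIa-Cre had removed the floxed exons from the germline on a C57Bl6/129 background, so the loss was not limited to germ cells, and a wild-type library was not analysed here. Which of the 2 independent knockout lines gave these animals is not stated in the labels. RNAs of 15 to 40 nt had been cut from a gel before an Illumina small RNA kit was used, and the lists held lengths of 18 to 40 nt.

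There was 1 library per genotype and no replicate, so no test was run. Intervals are 95% Wilson intervals for shares and exact binomial intervals for ratios. For shares of reads and for ratios they reflect the sampling of reads alone: without molecular identifiers, copies of 1 molecule made by PCR count as separate reads, so these are intervals for counting error only. For shares of ends, as with the base after the modal end, they treat the ends as independent, which many are not. They do not measure the spread between animals or libraries. In libraries from whole testes, fewer cells of a type and less RNA per cell cannot be told apart. The shared ends held 10221306 of 54581099 Tdrkh-/- reads of 24 to 40 nt (18.7%) and 3689685 of 38740799 Tdrkh+/- reads (9.52%). Counts over all 28350 ends that had at least 50 reads in each library and passed the same screen are given beside those of the 833 as the background.

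In the germ line, piRNAs guide PIWI proteins to transposon transcripts and to some messenger RNAs. A long single-stranded precursor is cut on the mitochondrial surface, often just before a U, and the PIWI protein holds the 5′ end of the piece. The 3′ end is then shortened by an exonuclease until it reaches the length that the protein protects, and it is methylated there. TDRKH is a mitochondrial protein with Tudor and KH domains that binds PIWI proteins and is known to be needed for this 3′ trimming. Reads that share a 5′ end can thus differ in how far the 3′ end was shortened, and the base that follows each 3′ end can be read from longer reads of the group.

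The sequences below show where the reads of an end stopped in the 2 libraries. Capitals start after the shorter of the 2 modal ends, the modal end being the most frequent 3′ end of a library, and run through the base after the longer one, so the last capital is the base that follows the longer mode. Where the modes are equal, the lone capital is the base after both. The letters, in DNA code, are those of the GENCODE transcript or its reverse strand and are the same as every called base of the deposited reads. Where a transcript's untranslated region was involved, the window was kept short and its first base is stated. The first set was picked to show ends that stopped farther downstream in Tdrkh-/- and before a T.
Mroh2a antisense, bases 7 to 36: taaatctgagagcctggcaccttGCAGGAT
Fth1 downstream end, bases 8 to 37: aaactgatgaagctgcagaaCCAGCGAGGT
Ppp1r7, bases 4 to 33: aaacctgagaacctgaattcaaatcCCCAT
1700001L05Rik downstream end, bases 1 to 31: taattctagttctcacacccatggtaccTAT
Ptpn14, bases 4 to 33: actcaacgaacatgattagccttgacccCT

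The second set shows ends with the same mode in both libraries that stopped before a T.
1700001L05Rik upstream end, bases 1 to 31: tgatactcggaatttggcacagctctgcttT
Fth1 upstream end, bases 2 to 31: gaccgagatgatgtggctctgaagaacttT
Gm37625 antisense, bases 1 to 35: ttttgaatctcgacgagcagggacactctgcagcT

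The third set shows ends with the same mode in both libraries and another base after it. The Klf13 pair starts 1 nt apart and stops at the same base.
Zbtb37, bases 1 to 28: tcgatctgtagattagcctggcctcccA
Klf13 upstream end, bases 1 to 28: ttcaagacgaatgaatgcctcggccccA
Klf13 downstream end, bases 1 to 27: tcaagacgaatgaatgcctcggccccA
Gabpb2, bases 1 to 28: taagagaaagaactgtagctgggcagtG

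The fourth set shows 2 ends with a large shift and no T after the Tdrkh-/- mode, and 2 ends whose mode was shorter in Tdrkh-/-.
Bpnt1, bases 10 to 39: agacaaagttggccttgcaCTCAGAGATTC
Rps7, bases 1 to 40: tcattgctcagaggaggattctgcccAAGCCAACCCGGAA
Gm37767, bases 1 to 32: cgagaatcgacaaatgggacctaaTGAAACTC
D10Wsu102e, bases 2 to 31: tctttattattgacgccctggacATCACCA

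At most of the shared ends the Tdrkh-/- reads were longer, but at a large part of them the preferred 3′ end itself had not moved. The mean read length was longer in Tdrkh-/- at 786 of 833 ends (94.4%), against 92.1% of the background, and the median difference of the means was 2.14 nt. The modal length was longer in Tdrkh-/- at 424 ends (50.9%; background 57.1%), the same at 365 (43.8%; background 36.8%) and shorter at 44 (5.28%; background 6.11%). A shift of at least 3 nt was found at 327 ends (39.3%; background 45.4%). Modal lengths had medians of 31 nt (Tdrkh-/-) and 29 nt (Tdrkh+/-). With a minimum of 2000 reads per library, 329 ends were left, with a longer mode at 53.2% and an equal one at 40.4%. Whether the abundant ends differ from the background was not tested.

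The modal shift, Tdrkh-/- minus Tdrkh+/-, ran from -7 to 14 nt. After the 365 ends with no shift the most frequent values were 1 nt (62 ends), 4 nt (55), 3 nt (51) and 5 nt (47). The counts fell to 25 ends at 7 nt and 14 at 11 nt, and 2 ends were shifted by 14 nt. In Tdrkh+/- the modes gathered between 26 and 31 nt, with the peak of 161 ends at 27 nt, 120 at 28 nt and 129 at 29 nt. In Tdrkh-/- they spread more widely, with 90 ends at 31 nt, 87 at 30 nt, 83 at 32 nt, 63 at 35 nt and 18 at 40 nt, the longest length listed. The 57 ends with a Tdrkh-/- mode of 27 nt were mostly ends that had that mode in Tdrkh+/- too (50). Averaged over ends, 16.7% of Tdrkh+/- reads and 6.01% of Tdrkh-/- reads were of 27 nt, 11.6% and 9.83% of 30 nt, and 2.11% and 7.16% of 35 nt. The share was higher in Tdrkh+/- from 25 to 30 nt and higher in Tdrkh-/- from 31 nt (10.6% and 9.24%) to 40 nt, and at 24 nt it was 2.97% in Tdrkh-/- and 2.73% in Tdrkh+/-.

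The end antisense to Mroh2a, a gene of the maestro heat-like repeat family, lies on the minus strand at chr1:88262137-88262160 (GRCm38; coordinates here are those of the first 24 nt). It had 96741 reads in Tdrkh-/- and 50595 in Tdrkh+/-. The Tdrkh+/- reads stopped at 27, 28 and 29 nt in near-equal parts, 25.8%, 29.1% and 35.2%. In Tdrkh-/- 32.2% (31.9 to 32.5%) stopped at 35 nt and 27.2% at 36 nt, while 13.8% stopped at 28 nt. The 28-nt end of the heterozygote was thus still present in Tdrkh-/- beside the longer ones, whereas 0.706% of Tdrkh+/- reads stopped at 35 nt and 1.10% at 36 nt. The base after the 35-nt end is U and the base after the 29-nt end is G.

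Fth1, which encodes the ferritin heavy chain that stores iron, had 15 shared ends that match no other gene, the highest count of this kind. Its downstream end, in the coding sequence at chr19:9984264-9984287 on the plus strand, had 111059 and 7777 reads in Tdrkh-/- and Tdrkh+/-. In Tdrkh-/- 91.8% (91.6 to 91.9%) of them stopped at 36 nt. In Tdrkh+/- 29.5% (28.5 to 30.5%) stopped at 27 nt, 22.6% at 28 nt and 17.6% at 29 nt, and 19.4% also stopped at 36 nt. The preferred Tdrkh-/- end was therefore present in the heterozygote too, behind the ends at 27 and 28 nt. In the transcript it is followed by U, but fewer than 80% of the reads that cover this base were alike, so it was not called from the reads. The upstream end, at chr19:9984192-9984215, had its mode at 30 nt in both libraries, with 46.7% of 48028 reads and 31.5% of 17734 reads. Its Tdrkh-/- reads had a second end at 37 nt with 27.6%, against 4.71% in Tdrkh+/-, where 20.3% stopped at 28 nt and 14.8% at 26 nt. Of its reads, 93.2% in Tdrkh-/- and 72.4% in Tdrkh+/- stopped before a U.

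Ppp1r7, a regulatory subunit of protein phosphatase 1, has its end at chr1:93367674-93367697 in the 3′ untranslated region on the plus strand, with 50506 and 14876 reads. There 62.8% of Tdrkh-/- reads stopped at 32 nt and 27.9% at 34 nt, while Tdrkh+/- reads stopped at 28 nt (30.4%), 29 nt (25.5%) and 30 nt (12.4%). The Tdrkh-/- mode was followed by U and the Tdrkh+/- mode by C. Ptpn14, a protein tyrosine phosphatase, was shifted by 1 nt only, at chr1:189873405-189873428 on the plus strand. Its 80648 Tdrkh-/- reads stopped at 32 nt in 66.5% and at 31 nt in 23.99% of cases. Its 3123 Tdrkh+/- reads were divided between 25 nt (22.2%), 30 nt (19.2%), 31 nt (22.3%) and 32 nt (21.9%).

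The long noncoding 1700001L05Rik held 11 shared ends, all sense, and had fewer reads in Tdrkh-/- at them (106661) than in Tdrkh+/- (221797). The upstream end, at chr15:83354954-83354977 on the minus strand, had the same mode of 30 nt in both, but it was far sharper in Tdrkh-/-. There 79.4% of 30024 reads stopped at 30 nt, whereas the 85353 Tdrkh+/- reads stopped at 30 nt (24.8%), 28 nt (22.8%) and 27 nt (19.4%). Its downstream end, at chr15:83354912-83354935, had 2 ends in both libraries in opposite proportion. At 28 nt stopped 19.5% of 13621 Tdrkh-/- reads and 80.4% of 61278 Tdrkh+/- reads, and at 30 nt stopped 76.0% and 4.81%. Each of the 2 positions is followed by a U. An end of 70546 Tdrkh-/- and 1475 Tdrkh+/- reads antisense to Gm37625, at chr1:128087310-128087333 on the plus strand, also kept its mode. At 34 nt stopped 96.3% of reads in Tdrkh-/- against 48.5% in Tdrkh+/-, and a further 38.2% of the latter stopped at 27 nt against 0.339% of the former.

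At other ends with an unmoved mode, the heterozygote was the sharper library. Zbtb37, a zinc finger and BTB domain gene, has such an end in its 3′ untranslated region at chr1:161011731-161011754 on the minus strand. At 27 nt stopped 74.5% (74.2 to 74.8%) of its 70116 Tdrkh+/- reads and 19.2% (18.8 to 19.5%) of its 44172 Tdrkh-/- reads. The rest of the Tdrkh-/- reads were spread out, with 14.96% at 28 nt, 11.6% at 31 nt and 8.07% at 35 nt. Gabpb2, a subunit of a GA-binding transcription factor, had 94.0% of 38894 Tdrkh+/- reads at 27 nt at chr3:95183961-95183984 on the minus strand, and 49.5% of 7220 Tdrkh-/- reads. Of the latter a further 10.5% stopped at 40 nt and 7.54% at 39 nt.

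Klf13 encodes a Krüppel-like transcription factor, and its 2 named ends start 1 nt apart in the 3′ untranslated region on the minus strand, at chr7:63888028-63888051 and chr7:63888027-63888050. In Tdrkh+/- the first had 89.2% of 64740 reads at 27 nt and the second 84.9% of 45989 reads at 26 nt, which is the same base. In Tdrkh-/- the same 3′ end was the mode for 37.3% of 7383 reads and 21.3% of 7497 reads. The pair thus kept a common 3′ end rather than a common length in either library.

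Bpnt1, a bisphosphate nucleotidase, showed a large shift with broad profiles at chr1:185357321-185357344 in the 3′ untranslated region on the plus strand. Its mode was at 38 nt in Tdrkh-/- (41.5% of 66010 reads), followed by C in the transcript but with no base called from the reads, and at 28 nt in Tdrkh+/- (23.8% of 14514 reads), where 22.3% stopped at 31 nt and 20.3% at 30 nt. Rps7, a protein of the small ribosomal subunit, had one of the 7 ends with a shift of 13 nt. In Tdrkh+/- 70.6% (68.3 to 72.9%) of its 1487 reads stopped at 26 nt. In Tdrkh-/- 39.7% (37.4 to 42.1%) of 1717 reads stopped at 39 nt and 38.9% at 40 nt, where the lists stop. The Rps7 end spans an exon junction on the minus strand between positions 28633820 and 28634219 of chromosome 12, and its first 24 nt also match other genes, 20 in all.

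A shorter mode in Tdrkh-/- did not always mean a shorter mean length. Over the 44 ends of this kind the mean length was still longer in Tdrkh-/- at 31, with a median difference of 0.812 nt. The end in the noncoding Gm37767, at chr1:162087597-162087620 on the minus strand, had its mode at 24 nt in Tdrkh-/- (30.3% of 24922 reads) and at 31 nt in Tdrkh+/- (36.6% of 1557 reads), while the mean lengths were 29.6 and 29.2 nt. Its Tdrkh-/- reads had further ends at 30 nt (11.3%) and 40 nt (9.18%). The D10Wsu102e end at chr10:83467302-83467325 on the plus strand is one of the exceptions, with mean lengths of 28.28 and 28.97 nt. Of its reads, 42.1% in Tdrkh-/- and 8.40% in Tdrkh+/- stopped at 24 nt, and 25.4% and 59.7% stopped at 30 nt. The first 24 nt of these ends match 4 and 11 genes. Both had their Tdrkh-/- mode at 24 nt, the shortest length grouped, so shorter reads do not enter their modes or mean lengths.

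In each library, its own 10 ends with the most reads held 29.96% (Tdrkh-/-) and 15.6% (Tdrkh+/-) of its reads at shared ends. The 10 most abundant ends are here those with the highest mean of the 2 libraries' shares of reads. Of these, 8 matched more than 20 genes, 1 matched 3 genes and 1 matched no transcript. The first, found in 43 genes, had 656880 and 18071 reads. Its Tdrkh-/- reads stopped at 36 nt (33.3%), 35 nt (19.5%) and 32 nt (14.5%), while its Tdrkh+/- reads had near-equal parts at 24 nt (14.6%), 25 nt (14.5%), 27 nt (12.5%) and 26 nt (11.8%). The next, in the 3′ untranslated region of Kdm5d, a histone demethylase gene of the Y chromosome, and in 2 other genes, had 404620 and 67300 reads, a mode of 27 nt in both libraries and 70.7% and 50.4% of reads there. The next matched no transcript and had 459035 and 3347 reads. At 35 nt stopped 90.4% of the former and 49.7% of the latter, of which a further 26.9% stopped at 25 nt. Of these 10 ends, 6 kept their mode, and the mean length was longer in Tdrkh-/- at all 10, by 1.001 to 5.06 nt.

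The 3′ ends were also sorted into classes by the length of the reads. An end was called piRNA-size in a library where at least 75% of its reads were of 24 to 30 nt, long where at least 75% were of 31 to 40 nt, and mixed otherwise. In Tdrkh-/- 176 ends were piRNA-size, 258 mixed and 399 long, and in Tdrkh+/- 519, 195 and 119. The full exchange, piRNA-size in Tdrkh+/- and long in Tdrkh-/-, was found at 137 ends (16.4%; background 20.2%). A partial change was more frequent, with 208 ends that were piRNA-size in Tdrkh+/- and mixed in Tdrkh-/- and 145 that were mixed and long. Background shares were computed only for the full exchange and for ends that were piRNA-size or long in both libraries. The other class counts describe the 833 ends alone. No end of the 833 was long in Tdrkh+/- and piRNA-size in Tdrkh-/-, and 2 were long in Tdrkh+/- and mixed in Tdrkh-/-. A further 2 were mixed in Tdrkh+/- and piRNA-size in Tdrkh-/-, 1 in the gene Knop1 and 1 in Gdpgp1. In the Knop1 end 50.3% of 2594 Tdrkh+/- reads and 88.3% of 10525 Tdrkh-/- reads were of 24 to 30 nt, and in the Gdpgp1 end 70.2% of 2998 and 86.5% of 8376.

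Ends that kept their class were piRNA-size, long or mixed in both libraries, the last at 48 ends (5.76%). At 174 (20.9%; background 19%) both libraries were piRNA-size, and at 117 (14.05%; background 12.7%) both were long. Of the ends that stayed piRNA-size, 124 had the same mode and the median share of reads at the mode was high, 72.7% in Tdrkh-/- and 75.3% in Tdrkh+/-. Ends that were long in both had median shares of 24 to 30 nt reads of 2.15% in Tdrkh-/- and 7.66% in Tdrkh+/-. The mode was the same at 77 of these 117, and the mean was longer in Tdrkh-/- at 105. The ends of the full exchange had a median shift of 6 nt, from a median mode of 28 nt to one of 35 nt. Their mean length differed by a median of 5.34 nt.

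Equal modes did not mean equal profiles. At the 365 ends with the same mode, a median of 24.1% of Tdrkh-/- reads and 8.39% of Tdrkh+/- reads ran past it, and the Tdrkh-/- share was the larger at 283. With a common mode of 24 to 30 nt (225 ends) the heterozygote had the higher median share at the mode, 74.98% against 59.7%. With a common mode of 31 to 40 nt (140 ends) the order was the opposite, 50.2% in Tdrkh+/- against 63.4% in Tdrkh-/-. At the ends shifted by at least 3 nt, 5.53% of Tdrkh-/- reads still stopped at the Tdrkh+/- mode and 3.69% of Tdrkh+/- reads at the Tdrkh-/- mode, as medians. Over all shared ends the median share at the mode was 49.2% in Tdrkh-/- (range 14.9 to 99.95%) and 54.8% in Tdrkh+/- (range 13.3 to 99.96%). A single 3′ end held at least 50% of reads at 403 ends in Tdrkh-/- and 484 in Tdrkh+/-.

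The base after the modal end was U far more often in Tdrkh-/-, and the difference lay at ends whose modes were unequal. The next base was taken from the longer reads of the same end in both libraries, and called where at least 20 reads covered it and at least 80% were alike. It was U at 475 of 695 called ends in Tdrkh-/- (68.3%, 64.8 to 71.7%; background 61.7%) and at 293 of 763 in Tdrkh+/- (38.4%, 35.0 to 41.9%; background 32.4%). U made up 25.4% of all called bases past position 24 of these ends. The other bases after the Tdrkh-/- mode were A at 13.4%, C at 11.9% and G at 6.33%, and after the Tdrkh+/- mode A at 26.1%, C at 17.8% and G at 17.7%. At ends with the same mode, where the value is by construction the same in both, the share was 63.5% (200 of 315). At ends with a longer Tdrkh-/- mode it was 72.6% (246 of 339) for Tdrkh-/- and 21.1% (86 of 408) for Tdrkh+/-.

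Ends with a shorter Tdrkh-/- mode had the same order, with U after 29 of 41 Tdrkh-/- modes (70.7%, 55.5 to 82.4%) and 7 of 40 Tdrkh+/- modes (17.5%, 8.75 to 31.9%). Among ends with a common mode, U followed 57.9% (114 of 197) of those of 24 to 30 nt and 72.9% (86 of 118) of those of 31 to 40 nt. Shifts of 3 to 5 nt had 66.4%, of 6 to 8 nt 75.3% and of at least 9 nt 80.4% U after the Tdrkh-/- mode. The intervals, counted over ends, were 58.0 to 73.9%, 64.4 to 83.8% and 67.5 to 89.0%, and whether these shares differ was not tested. The next base was called at 131 of the 153, 73 of the 92 and 51 of the 82 ends with these shifts. A larger part of the ends was thus left out at larger shifts, and no base can be called after a mode at 40 nt. By 3′ end class, the share after the Tdrkh-/- mode was 67.1% (98 of 146) at ends that stayed piRNA-size, 75.5% (80 of 106) at those of the full exchange and 73.9% (68 of 92) at those long in both. After the Tdrkh+/- mode the same 3 classes had 51.3%, 16.4% and 54.5%.

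Over all ends, U was most frequent at the base just past the end, in Tdrkh+/- by a small margin over the last base. In Tdrkh-/- U stood just past the end at 68.3%. It stood at 29.2% and 25.7% at the next 2 bases and at 34.3% at the last base of the read. Counted back from the 3′ end, it was lowest at the third base with 12.5% and the fourth with 10.6%, and stood at 18.9% at the fifth and 22.5% at the sixth. In Tdrkh+/- the corresponding values were 38.4% just past the end, 25.5% and 22.6% after it, 36.5% at the last base, and 9.79%, 11.7%, 19.9% and 19.5% at the third to the sixth base back. For ends shifted by at least 3 nt, the Tdrkh+/- end was followed by U at 20.6%, 18.9% and 14.6% over the next 3 bases, below the 25.4% of U in the called bases. Their last Tdrkh+/- base was U at 29.56%, and the seventh base past the end at 31.15%. In Tdrkh+/- U was thus not most frequent just past the end at the shifted ends. Of the 183 ends in this set whose Tdrkh-/- mode stood before a U, 70 (38.3%) stopped at the first U past the Tdrkh+/- end and the others ran over at least 1 U.

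Counted over reads with a called next base, 59.6% stopped before a U in Tdrkh-/-, and 32.2% did so in Tdrkh+/-. The share was higher in Tdrkh-/- at 625 of the 833 ends and higher in Tdrkh+/- at 163. This count was not made for the background, where U after the modal end had the same order (61.7% in Tdrkh-/- and 32.4% in Tdrkh+/-). Over distinct 3′ ends of the 833, each counted once however many reads it had, the shares before a U were 28.3% and 27.6%. Reads that matched the consensus over their whole length made up 87.6% in Tdrkh-/- and 93.1% in Tdrkh+/-.

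Overlapping members were compared by the position of the modal 3′ end and by its distance from the start. There were 234 pairs of shared ends whose starts lay 1 to 5 nt apart on the same sequence. In Tdrkh-/- 164 pairs (70.1%) had the same modal 3′ end and 9 had the same modal length, and in Tdrkh+/- 125 (53.4%) and 15. Of the 73 pairs with starts 1 nt apart, 80.8% had a common 3′ end in Tdrkh-/-, and in Tdrkh+/- 67.1% had one. Starts 4 nt apart did so in 57.7% and 26.9% of 26 pairs, and starts 5 nt apart in 42.3% and 23.1% of 26. The same members can stand in several pairs, so the pairs are not independent. Such pairs were not counted for the background, so these shares describe the shared ends alone.

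A start of a further small RNA just past the end of a member was looked for at the 398 ends that match 1 gene and could be followed there. At least 10 Tdrkh-/- reads began at the base after the Tdrkh-/- mode in 98 of them (24.6%), while the other positions within 8 nt had a median of 8.92% and at most 11.6%. Since starts favour U, the same was counted where that base is U, with 89 of 265 (33.6%) while other positions that hold U had a median of 21.75% and at most 30%. Where the 2 modes were equal the share was 42.6% (49 of 115; other positions up to 38.2%), and at ends shifted by at least 3 nt it was 24.04% (25 of 104; other positions up to 36%). Whatever the base, the share at these shifted ends was 17.5% (29 of 166; other positions up to 12.7%). Past the Tdrkh+/- modes that stood before a U, Tdrkh-/- reads began at 63 of 165 (38.2%; other positions up to 27.4%). These 165 include the 115 ends with equal modes. At ends shifted by at least 3 nt, Tdrkh-/- reads began past such Tdrkh+/- modes at 9 of 33 (27.3%; other positions up to 36%). Whatever the base, they did so at 12 of 166 (7.23%; other positions up to 10.8%).

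By source, 463 of the 833 ends were sense to protein-coding genes, 74 to long noncoding genes and 12 to pseudogenes or other genes, 34 were antisense to genes, 105 matched more than 20 genes and 145 matched no transcript. The modal length was longer in Tdrkh-/- at 253 of the 463 (54.6%), at 41 of the 74 (55.4%), at 13 of the 34 antisense ends (38.2%), at 51 of the 105 (48.6%) and at 60 of the 145 without a match (41.4%). Within messenger RNAs, ends in coding sequence had the longer mode most often, at 46 of 68 (67.6%) with a median difference of the means of 3.27 nt. In 3′ untranslated regions this was so at 187 of 359 ends (52.1%; 2.19 nt) and in 5′ untranslated regions at 15 of 30 (50%; 2.46 nt). U followed the Tdrkh-/- mode at 77.8% of 54 called ends in coding sequence, 66.9% of 302 in 3′ and 54.5% of 22 in 5′ untranslated regions. Shares by source or region were not computed for the background, where 57.1% of all ends had a longer mode. Whether the sources or regions differ was not tested.

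Ends that match a single gene numbered 400 and lay in 209 genes, of which 131 held 1 end. Genes with several ends were not uniform. Of the 15 Fth1 ends 8 had a longer mode in Tdrkh-/- and 7 the same, with shifts of 0 to 10 nt, and U followed the Tdrkh-/- mode at 11 of 13. D10Wsu102e, whose product is not characterised, had 7 longer, 3 equal and 2 shorter modes among 12, with shifts from -2 to 13 nt. Mfsd4a, a gene of the major facilitator family of transporters, had 11 ends, all antisense, of which 6 were longer and 5 equal. The 11 ends in 1700001L05Rik were longer at 5 and equal at 6, with U after 10 of 11 Tdrkh-/- modes. Of the 8 Gabpb2 ends 4 were longer and 4 equal, and U followed 0 of 5 called Tdrkh-/- modes and 0 of 6 called Tdrkh+/- modes.

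The tyrosine kinase gene Abl2 stood at the other side, with 5 of 7 modes equal, a median shift of 0 and a median difference of the means of 0.0737 nt. Zbtb37 had 2 longer and 4 equal modes, and the noncoding AU020206 had 1 longer and 4 equal. Cbx5, which encodes the heterochromatin protein HP1 alpha, had 3 longer and 2 equal modes with a median shift of 6 nt. Ends in 1 gene thus kept or moved their mode side by side.

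The first base was U at 708 of the 833 ends (85.0%; background 83.8%) and the base at position 10 was A at 385 (46.2%; background 37.9%). The modal length was longer in Tdrkh-/- at 51.6% of ends with a first U and at 47.2% of the 125 others. Of the 125, 86 had A at position 10, the base that piRNAs made in the ping-pong cycle carry, in which cuts by piRNAs of one strand make the 5′ ends of the other. Ends complementary to each other over exactly their first 10 nt formed 43 pairs, against 14 pairs at 9 nt, 10 at 11 nt and 6 at 8 nt. The pairs at 10 nt involved 39 ends, 10 of them in more than 20 genes, with a median modal shift of 2 nt. Longer overlaps require more matching bases, so the counts at different lengths are not on an equal footing. Ends that are alike can count in several pairs. Pairs were not counted for the background, and no test was made.

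Many of the shared ends resemble one another, so that counts over ends count some sequences several times. With overlapping starts and copies that differ at 1 or 2 bases joined, there were 582 sets, 463 of them of a single end and the largest of 16. With the most abundant end of each set alone, modes were longer in Tdrkh-/- at 51.5% and equal at 43.6%, and U followed 67.8% of Tdrkh-/- and 38.4% of Tdrkh+/- modes. Of the 833, 20 match a microRNA or structural RNA over their first 18 nt, and 19 of these had the same mode in both libraries, with a median mode of 24 nt. Ends without a transcript match could be as sharp, and 1 had 98.3% of 11608 Tdrkh-/- and 98.2% of 10707 Tdrkh+/- reads at 24 nt.

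Levels at the shared ends are a description, since reads chose them. Ratios are Tdrkh-/- over Tdrkh+/-, per microRNA read, of which the libraries held 2486303 and 2363475. The median log2 ratio was 0.30, and per read listed it was -0.13. The ratio was at least 2-fold higher at 270 ends (32.4%; background 29.3%) and at least 2-fold lower at 119 (14.3%; background 20.5%). Per read listed these counts were 210 and 190, so the excess of higher ends depended on the scaling. Log2 ratios per microRNA read ran from -4.47 to 7.37. The end antisense to Gm37625 had a ratio of 45.5 (43.2 to 47.9), that of Ptpn14 24.6 (23.7 to 25.4) and the downstream Fth1 end 13.6 (13.3 to 13.9). At the low side stood the upstream Klf13 end with 0.108 (0.106 to 0.111), the Gabpb2 end with 0.176 (0.172 to 0.181) and the downstream 1700001L05Rik end with 0.211 (0.207 to 0.215). The mode was the same at the highest and at the lowest of these 6.

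At the edge of the choice, the 5 ends just inside had 1000 to 1006 reads in the poorer library, with modal shifts of 3, 11, -1, 2 and -4 nt. The 5 just outside had 991 to 999 reads in the poorer library and shifts of 4, 2, 5, 4 and 2 nt.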

How the data were processed

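The authors deposited, for each library, a table of distinct sequences with raw counts of reads: 60973266 reads of 12118721 sequences in Tdrkh-/- and 43172204 reads of 11808018 in Tdrkh+/-. Bowtie and mm9 appear in the submitters' processing notes. Their versions, the treatment of adapters and any filter are not given in the sources used.

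Sequences of 24 to 40 nt were grouped by their first 24 nt. These were matched exactly, on both strands, to GENCODE M21 transcripts (GRCm38), and no coordinate was taken from mm9. MicroRNA reads were of 18 to 25 nt. Ties of the modal length went to the shorter length. Scripts ran in Python 3.11.15 with Numba 0.67.0, pandas 2.3.3, SciPy 1.17.1 and NumPy 2.4.6. The calls of modal length, shift and next base were tested on simulated data of 600 ends, and 100% were recovered. Each simulated end had a single sharp peak per library and a random sequence, and none had its peak at 40 nt. The recovery therefore does not speak for broad or multiple peaks, repeat copies or modes at 40 nt.

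The ends, the lists and the rules were chosen with earlier results of these data known. Named ends are the 10 most abundant, the 5 largest and 5 smallest shifts and the 2 most abundant of each pair of classes, as far as they could be placed in a gene. The abundant ends that match 1 gene, and the 10 genes with the most ends, are named too; the former were chosen after their values were seen. A single one of the genes so named is not reported here. Ends with a match on chromosome 18 are not printed. With 1 library per genotype there was no test. The alternatives tried changed the read minimum, the grouping length, the screen, the counting of reads, the class limits, the source of the next base and the scaling.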

Additional observations from a re-analysis of the deposited data

Results flagged for a closer look

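Reads of 18 to 23 nt were not part of the groups, but some begin as a shared end does. Without the ends whose start is alike a microRNA or structural RNA, there were 222261 such reads in Tdrkh-/- and 109185 in Tdrkh+/-, or 2.19 and 3.02 per 100 reads of the ends. A count of 0 would allow up to 3 reads. They came from 564 ends in Tdrkh-/- and 593 in Tdrkh+/-. They are listed because they lie outside the lengths that the comparisons used.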

How the results depend on the processing

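No paired analysis was possible because each genotype has 1 library. Of the 81 values recomputed, 67 stayed within the interval of the main value, 13 moved and 1 turned its direction. The turned value is the median log2 ratio of levels, 0.30 per microRNA read and -0.13 per read listed. With each distinct sequence counted once, modes were longer in Tdrkh-/- at 55.7% and equal at 39.7%, and the full exchange fell to 2.16% of ends. With a minimum of 2000 reads per library, modes were equal at 40.4%. The full exchange was 29.2% with classes at 60% of reads and 3.12% at 90%. U after the Tdrkh-/- mode was 61.9% by the transcript. Next-base U was 59.6% and 32.2% over reads and 28.3% and 27.6% over distinct ends. Ends that match 1 gene alone, an alternative chosen after seeing the data, had a median difference of the means of 2.48 nt and 21.8% with the full exchange. The causes were not tested.

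The lists stop at 40 nt, so longer 3′ ends are missing and the Tdrkh-/- lengths are lower limits where reads gather there. At 40 nt stood 2.79% of Tdrkh-/- and 0.815% of Tdrkh+/- reads, averaged over ends. Reads shorter than 24 nt were not grouped, so modes and mean lengths leave them out. The mode was at 24 nt for 25 ends in Tdrkh-/- and 21 in Tdrkh+/-. The next base could not be called at 138 Tdrkh-/- and 70 Tdrkh+/- modes. An end with 1000 reads gives shares to a few percentage points, but no depth replaces a second library.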
